A study of Mus musculus with 14 samples.

Results

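The 10 genes described here, read in mouse ventricle, make or use nicotinamide adenine dinucleotide (NAD) or act on its precursors. They were taken by symbol from the deposited gene tables, and all 10 were found in both tables among 22136 genes listed in both (26068 in either). The genes are Nampt, Nmrk1 and Nmrk2 (entry of precursors), Nmnat1 and Nmnat3 (the last step of synthesis), Nadk (NADP synthesis), Nnmt (nicotinamide methylation), and Sirt1, Sirt3 and Parp1 (NAD consumers). PolyA RNA was sequenced from 4 groups of libraries: 4 from Rad knockout (Rad KO) ventricles after transverse aortic constriction (TAC), 3 from Rad KO ventricles after sham surgery, 4 from WT ventricles after TAC and 3 from WT ventricles after sham surgery. TAC narrows the aortic arch and loads the left ventricle with pressure, and Rad, a small GTPase, holds back L-type calcium channels of heart muscle. The treatment note of all 14 libraries places TAC 4 weeks before tamoxifen. Harvest followed TAC by over 2 months and the knockout by over 1 month. The labels give no age, sex, strain or Cre driver, and nothing in them says whether the members of a group are different animals. The p-values therefore measure the spread between these libraries, which may be technical.

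NAD carries electrons between metabolic enzymes and is also a substrate that sirtuins and poly(ADP-ribose) polymerases break down, releasing nicotinamide. Heart muscle remakes most of its NAD from this nicotinamide: NAMPT turns it into nicotinamide mononucleotide (NMN), and NMNAT enzymes turn NMN into NAD. A side entrance uses nicotinamide riboside, which the kinases NMRK1 and NMRK2 phosphorylate to NMN. NMRK2 is known as the form of striated muscle, and a higher Nmrk2 level beside a lower Nampt level has been described in failing hearts.

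Of these genes, Nmrk2 alone rose after TAC in WT, by 5.36-fold, while its paralogue Nmrk1, the salvage enzyme Nampt and the 7 other genes did not pass the test there. In the libraries labelled Rad KO the Nmrk2 difference was 3.53-fold with wide scatter and did not pass the test. Parp1 was lower after TAC under both labels and passed the test only when both labels were averaged, at 0.85-fold.

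The knockout label was not visible in the gene-level counts of the targeted gene. Single exons and protein were not examined, so these counts cannot show whether the gene was inactivated. Rrad, which encodes Rad, had 119.6 to 241 CPM (counts per 1000000, TMM-scaled) in the libraries labelled Rad KO TAC, 160.4 to 228 CPM in those labelled Rad KO sham, 127 to 243 CPM in WT TAC and 199 to 231 CPM in WT sham. Directions between labels below are therefore directions between libraries labelled Rad KO and libraries labelled WT. Esr1, the gene that tamoxifen-inducible Cre constructs borrow, parted libraries of 1 label. It had 336 to 2471 CPM in Rad KO TAC, 2004, 1.11 and 1929 CPM in Rad KO sham 1 to 3, 0.56 to 1.61 CPM in WT TAC, and 1.27, 1513 and 2216 CPM in WT sham 1 to 3. By this gene Rad KO sham 2 was at the level of WT TAC, and WT sham 2 and 3 were at that of the libraries labelled Rad KO. Whether sham labels were exchanged was not tested, and if they were, the comparison of labels in sham and the TAC effects within each label would not be those of the genotypes named. Of 7 cardiomyocyte markers, 0 were below 1 CPM in every library of a group, and their summed level was 40307 to 56483 CPM over all libraries. Of 5 skeletal muscle markers, Myh1 and Myh2 were at most 0.228 CPM, Myh4, listed in the WT table alone, at most 0.13 CPM and Tnnt3 at most 1.13 CPM, while Ckm, which heart muscle also expresses, had 787 to 1580.5 CPM. Total counts per library were 14546176 to 23314792.

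Promoter sequence (RefSeq, build GRCm38.p6) was found for 9 of the 10 genes, as 12 windows that run from 250 bases before to 50 bases after an annotated start site. The windows of the nicotinamide riboside kinases and of Parp1 are shown because Nmrk2 and Parp1 carry the calls and Nmrk1 is the paralogue that did not move with Nmrk2. Capitals mark the letters TATAAA in Nmrk2 and the E-box letters CACGTG in Parp1, and the Nmrk1 window holds neither.
Nmrk2, chr10:81201988-81202287, minus strand: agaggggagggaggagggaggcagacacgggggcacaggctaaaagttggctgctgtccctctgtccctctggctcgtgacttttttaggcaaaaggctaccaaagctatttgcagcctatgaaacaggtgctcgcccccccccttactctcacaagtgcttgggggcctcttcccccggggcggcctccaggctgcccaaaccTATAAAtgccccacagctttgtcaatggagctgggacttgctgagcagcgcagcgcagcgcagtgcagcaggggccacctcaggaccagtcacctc
Nmrk1, chr19:18631766-18632065, plus strand: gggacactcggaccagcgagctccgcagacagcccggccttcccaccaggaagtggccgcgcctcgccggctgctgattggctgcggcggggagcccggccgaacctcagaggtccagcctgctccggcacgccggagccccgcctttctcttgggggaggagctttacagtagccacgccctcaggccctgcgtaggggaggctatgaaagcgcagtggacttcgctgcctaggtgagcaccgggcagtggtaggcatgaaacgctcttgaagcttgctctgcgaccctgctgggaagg
Parp1, chr1:180568641-180568940, plus strand: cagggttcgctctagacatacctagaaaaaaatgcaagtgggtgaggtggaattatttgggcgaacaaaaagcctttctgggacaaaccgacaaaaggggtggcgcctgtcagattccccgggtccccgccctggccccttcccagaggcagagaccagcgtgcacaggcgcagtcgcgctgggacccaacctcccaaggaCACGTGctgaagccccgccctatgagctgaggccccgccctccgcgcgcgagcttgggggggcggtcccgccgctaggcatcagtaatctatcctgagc

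Each window was searched on both strands for 4 motifs, which do not overlap in these windows. TATAAA, searched after the Nmrk2 window had been read, was found in 1 of 12 windows, that of Nmrk2, at position -46 from its start site, and in 13.6% of 32851 mouse promoter windows of the same length. CACGTG, the E-box bound by clock proteins, was found in 3 of the 12 windows (Parp1, Sirt1 and the second Nadk start) and in 7.15% of all windows. The motif holds a CpG, and these 3 windows had 20, 47 and 24 CpG dinucleotides, against a median of 7 over all windows. The 7.15% is therefore not a like background for them. CATTCC, the core of the MCAT element of muscle genes, was in 0 of the 12 windows and in 14.7% of all, and the CArG box was in 0 of the 12 and in 1.63% of all. The Nmrk2 window held 8 CpG dinucleotides, against 23 in the Nmrk1 window and a median of 7 over all windows. These matches describe letters in a window, and where there is no match it says only that the letters are not in that window.

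On the per-length scale of the deposited FPKM values, Nampt was the highest of the 10 genes in each group and Nmrk1 the lowest. FPKM was normalised separately in the Rad KO and WT tables, so orders are given within a group. Mean Nampt was 37.3 ± 4.30 FPKM in Rad KO TAC (SD, n = 4), 39.7 ± 6.90 FPKM in Rad KO sham (SD, n = 3), 29.6 ± 9.19 FPKM in WT TAC (SD, n = 4) and 33.5 ± 1.15 FPKM in WT sham (SD, n = 3). Nmrk2 stood second in both TAC groups, at 12.6 ± 9.45 FPKM in Rad KO TAC and 14.8 ± 7.27 FPKM in WT TAC, and sixth in Rad KO sham (3.59 ± 0.125 FPKM) and seventh in WT sham (2.78 ± 0.595 FPKM). In both TAC groups the libraries overlapped with those of the next gene, Parp1, so that second place is not set apart from the third, and in WT TAC they also overlapped with Nampt. In both sham groups the order Nampt, Parp1, Nadk, Nmnat1 and Sirt3 held with no overlap between neighbouring genes. Nmrk1 had 0.57 ± 0.083 FPKM in Rad KO TAC, 0.57 ± 0.195 FPKM in Rad KO sham, 0.48 ± 0.162 FPKM in WT TAC and 0.55 ± 0.164 FPKM in WT sham.

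Nmrk2 (ENSMUSG00000004939, chromosome 10, 81198170 to 81202051, minus strand, mm10) had 42.5, 33.7, 11.4 and 6.05 CPM in Rad KO TAC 1 to 4 and 6.41, 6.69 and 6.90 CPM in Rad KO sham 1 to 3. It had 17.8, 27.2, 47.0 and 18.4 CPM in WT TAC 1 to 4 and 4.21, 5.02 and 6.37 CPM in WT sham 1 to 3. In WT every TAC library lay above every sham library, whereas in the libraries labelled Rad KO 3 of 4 TAC libraries lay above sham and Rad KO TAC 4 lay just below all 3. Group means were 23.4 ± 17.5 CPM in Rad KO TAC (SD, n = 4), 6.66 ± 0.248 CPM in Rad KO sham (SD, n = 3), 27.6 ± 13.6 CPM in WT TAC (SD, n = 4) and 5.20 ± 1.09 CPM in WT sham (SD, n = 3). The coefficient of variation of Nmrk2 was 74.6% in Rad KO TAC and 49.4% in WT TAC, and the highest of its 14 levels was 11.2 times the lowest, a wider range than for any of the other 9 genes.

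In WT, TAC over sham gave a log2 fold change of 2.42 for Nmrk2 (SE 0.34, 95% interval 1.66 to 3.19, adjusted p = 0.00898). Here and below, adjusted p-values come from the quasi-likelihood test of edgeR, adjusted by Benjamini-Hochberg over all genes tested. In the libraries labelled Rad KO it was 1.82 (SE 0.57, 95% interval 0.56 to 3.08, unadjusted p = 0.00889, adjusted p = 0.139). Averaged over both labels it was 2.12 (SE 0.38, adjusted p = 0.00284), higher in 7 of 8 TAC libraries than in every sham library of the same label. The authors' deposited table gave Nmrk2 log2 fold changes of 1.81 with adjusted p = 0.132 for Rad KO and 2.42 with adjusted p = 8.99e-13 for WT. The WT call was lost without WT sham 3 (2.60, adjusted p = 0.0639) and without WT sham 2 and 3, the libraries with high Esr1 (2.72, adjusted p = 0.398, 1 sham library left, with 0 genes called in all). The average call was lost without these and Rad KO sham 2 (2.26, adjusted p = 0.0857). The Rad KO value was 2.14 with adjusted p = 0.0214 without Rad KO TAC 4 and 1.35 with adjusted p = 0.263 without Rad KO TAC 1, and without any 1 library other than Rad KO TAC 4 it did not pass.

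**Figure D1:**
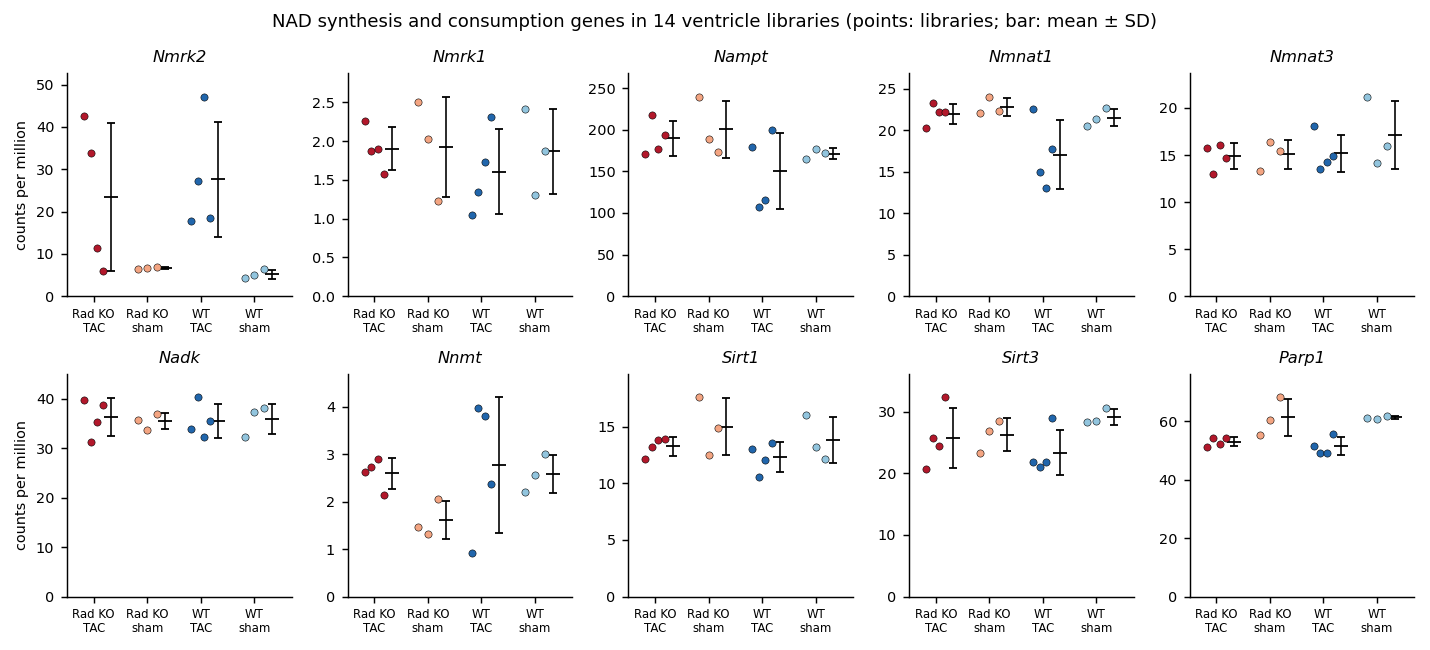
CPM (vertical axes, from 0) of each of the 10 genes in the 14 libraries, in the order Rad KO TAC, Rad KO sham, WT TAC and WT sham; points are libraries and the bar beside them is the mean ± SD. Nmrk2 lies at 17.8 to 47.0 in WT TAC against 4.21 to 6.37 in WT sham, while Rad KO TAC runs from 6.05 to 42.5.

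The exons of Nmrk2 share 270 bases, 14.6% of its exonic length, with the antisense gene Atcayos on the opposite strand. The strand setting of the counting was not found in the sources used, and reads of these genes cannot be told apart in that stretch. Atcayos had 33.6 to 39.7 CPM in Rad KO TAC, 24.3 to 29.8 CPM in Rad KO sham, 34.7 to 46.6 CPM in WT TAC and 32.99 to 41.9 CPM in WT sham. Its log2 fold change after TAC was 0.39 (SE 0.11, adjusted p = 0.119) in the libraries labelled Rad KO and 0.20 (SE 0.12, adjusted p = 0.446) in WT, and averaged over both labels Atcayos rose by 0.29 (SE 0.09, adjusted p = 0.0399). Atcayos was at 33.6 CPM in Rad KO TAC 4, where Nmrk2 was at 6.05 CPM, and at 37.2 CPM in Rad KO TAC 1, where Nmrk2 was at 42.5 CPM.

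Nmrk1 (ENSMUSG00000037847, chromosome 19, 18631950 to 18652194, plus strand) is the kinase found in most tissues. It had 1.58 to 2.25 CPM in Rad KO TAC, 1.23 to 2.50 CPM in Rad KO sham, 1.04 to 2.31 CPM in WT TAC and 1.31 to 2.41 CPM in WT sham, and TAC and sham overlapped under both labels. Its log2 fold change was -0.00 (SE 0.31, 95% interval -0.70 to 0.69) in Rad KO and -0.22 (SE 0.35, 95% interval -0.99 to 0.55) in WT. With 16 to 55 counts a library, these intervals still allow a change of about the size of their bounds. On the per-length scale, Nmrk2 was 34.0, 32.4, 10.8 and 6.90 times Nmrk1 in Rad KO TAC 1 to 4 and 4.62, 5.94 and 10.2 times in Rad KO sham 1 to 3. In WT the ratio was 30.8, 36.5, 49.1 and 14.4 in TAC 1 to 4 and 3.15, 6.90 and 6.13 in sham 1 to 3. The WT ratios did not overlap between TAC and sham, and Rad KO TAC 4 lay within the range of Rad KO sham.

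Nampt (ENSMUSG00000020572, chromosome 12, 32819545 to 32853349, plus strand) had 171, 218, 176 and 193 CPM in Rad KO TAC 1 to 4 and 239, 189 and 173 CPM in Rad KO sham 1 to 3. In WT it had 179, 107, 116 and 199 CPM in TAC 1 to 4 and 165, 177 and 172 CPM in sham 1 to 3. WT TAC 2 and 3 were the lowest of the 14 libraries, while WT TAC 1 and 4 lay above all 3 WT sham libraries. The log2 fold change of Nampt was -0.08 (SE 0.13, 95% interval -0.37 to 0.21, adjusted p = 0.796) in Rad KO and -0.18 (SE 0.20, 95% interval -0.64 to 0.27, adjusted p = 0.7097) in WT.

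Set against each other per length, Nmrk2 reached 0.677, 0.422, 0.177 and 0.0853 of the Nampt FPKM in Rad KO TAC 1 to 4 and 0.0730, 0.0964 and 0.109 in Rad KO sham 1 to 3. It reached 0.271, 0.695, 1.11 and 0.252 of Nampt in WT TAC 1 to 4 and 0.0697, 0.0773 and 0.101 in WT sham 1 to 3. WT TAC 3 was the 1 library in which Nmrk2 exceeded Nampt. Of the summed FPKM of Nampt, Nmrk1 and Nmrk2, the Nmrk2 share averaged 23.0% ± 14.4 in Rad KO TAC (SD, n = 4), 8.36% ± 1.52 in Rad KO sham (SD, n = 3), 33.4% ± 15.6 in WT TAC (SD, n = 4) and 7.503% ± 1.37 in WT sham (SD, n = 3).

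**Figure D2:**
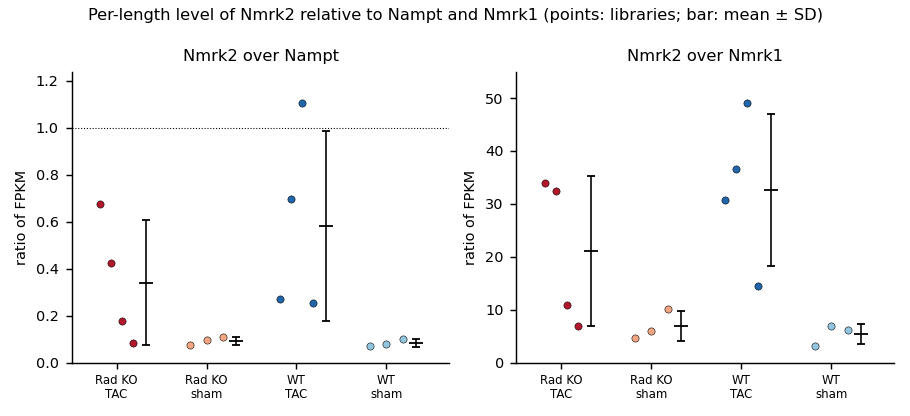
Ratio of deposited FPKM values (vertical axes, from 0) of Nmrk2 over Nampt and of Nmrk2 over Nmrk1 by library and group; points are libraries, the bar is the mean ± SD and the dotted line marks equal levels. Both ratios are higher in all WT TAC libraries than in WT sham, and 1 library, WT TAC 3 at 1.11, lies above the line for Nampt.

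Nmnat1 (chromosome 4), the nuclear adenylyltransferase, had 20.3, 23.2, 22.2 and 22.2 CPM in Rad KO TAC 1 to 4 and 22.1, 24.0 and 22.3 CPM in Rad KO sham 1 to 3. In WT it had 22.5, 14.9, 13.1 and 17.8 CPM in TAC 1 to 4 and 20.6, 21.4 and 22.7 CPM in sham 1 to 3. The lower WT TAC libraries were 2 and 3, as for Nampt, and WT TAC 1 lay within the sham range. The log2 fold change was -0.05 (SE 0.10, adjusted p = 0.823) in Rad KO and -0.33 (SE 0.17, adjusted p = 0.359) in WT. Averaged over both labels Nmnat1 had -0.20 (SE 0.10, adjusted p = 0.231), which became -0.28 with adjusted p = 0.0274 without WT TAC 1. Nmnat3, the form assigned to mitochondria, had 12.95 to 16.02 CPM in Rad KO TAC, 13.3 to 16.4 CPM in Rad KO sham, 13.5 to 18.04 CPM in WT TAC and 14.2 to 21.1 CPM in WT sham, and all ranges overlapped.

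Nadk, which phosphorylates NAD to NADP in the cytosol, varied least of the 10 genes, with 1.29-fold between its highest and lowest library. It had 31.3 to 39.9 CPM in Rad KO TAC, 33.8 to 37.0 CPM in Rad KO sham, 32.3 to 40.3 CPM in WT TAC and 32.4 to 38.1 CPM in WT sham. Its log2 fold change was 0.03 (SE 0.11, 95% interval -0.21 to 0.27) in Rad KO and -0.01 (SE 0.11, 95% interval -0.25 to 0.23) in WT.

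Nnmt, which methylates nicotinamide and so removes it from salvage, had 2.63, 2.72, 2.88 and 2.13 CPM in Rad KO TAC 1 to 4 and 1.47, 1.31 and 2.06 CPM in Rad KO sham 1 to 3. In WT it had 0.91, 3.98, 3.79 and 2.38 CPM in TAC 1 to 4 and 2.19, 2.56 and 2.999 CPM in sham 1 to 3. The Rad KO groups did not overlap, by a margin of 2.13 against 2.06 CPM, while in WT the TAC libraries lay on both sides of sham. The log2 fold change was 0.68 (SE 0.27, unadjusted p = 0.0312, adjusted p = 0.234) in Rad KO and 0.12 (SE 0.41, adjusted p = 0.922) in WT. Nnmt is also known as a gene of fibroblasts. Summed over 8 fibroblast markers, each at 1 CPM or more in some library of each group, the level was 2178 to 4541 CPM in Rad KO TAC, 2338 to 2739 CPM in Rad KO sham, 2459 to 3715 CPM in WT TAC and 2169 to 3017 CPM in WT sham. Of the 8 markers, 1 (Pi16) rose in each label and 3 (Pi16, Col1a1 and Col1a2) rose in the average. Over all tested genes 1.05% rose in Rad KO, 2.00% in WT and 6.36% in the average. The part of fibroblast content in the Nnmt values was not tested. In bulk tissue a change in the number of cells of a type and a change in RNA per cell cannot be told apart.

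Among the consumers, Parp1 (ENSMUSG00000026496, chromosome 1, 180568924 to 180601254, plus strand), the polymerase that senses DNA breaks, had 51.2, 54.2, 52.4 and 54.4 CPM in Rad KO TAC 1 to 4 and 55.4, 60.6 and 68.2 CPM in Rad KO sham 1 to 3. In WT it had 51.7, 49.3, 49.2 and 55.7 CPM in TAC 1 to 4 and 61.3, 60.9 and 61.9 CPM in sham 1 to 3. Under each label every TAC library lay below every sham library of that label. The log2 fold change was -0.21 (SE 0.09, unadjusted p = 0.0430, adjusted p = 0.269) in Rad KO and -0.25 (SE 0.09, unadjusted p = 0.0193, adjusted p = 0.180) in WT. Averaged over both labels Parp1 fell by 0.24 (log2, SE 0.06, 95% interval -0.36 to -0.11, adjusted p = 0.0186), with 8 of 8 TAC libraries below the sham libraries of their label. The call was lost without WT sham 3 (adjusted p = 0.0526), without Rad KO sham 3 (adjusted p = 0.0594) and without Rad KO sham 2 and WT sham 2 and 3, the shams that differed in Esr1 from the TAC libraries of their label (-0.24, adjusted p = 0.222).

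Sirt1, the nuclear deacetylase, had 12.1 to 13.9 CPM in Rad KO TAC, 12.5 to 17.6 CPM in Rad KO sham, 10.5 to 13.6 CPM in WT TAC and 12.1 to 16.1 CPM in WT sham. Its log2 fold changes were -0.18 (SE 0.14) in Rad KO and -0.16 (SE 0.14) in WT, and TAC and sham overlapped under both labels. Sirt3, the main mitochondrial deacetylase, had 20.7, 25.7, 24.4 and 32.3 CPM in Rad KO TAC 1 to 4 and 23.3, 27.0 and 28.5 CPM in Rad KO sham 1 to 3. In WT it had 21.8, 21.0, 21.8 and 28.9 CPM in TAC 1 to 4 and 28.3, 28.4 and 30.6 CPM in sham 1 to 3. WT TAC 1 to 3 lay below sham and WT TAC 4 within it. The WT log2 fold change of Sirt3 was -0.31 (SE 0.13, unadjusted p = 0.0342, adjusted p = 0.241), and -0.43 with adjusted p = 0.0488 without WT TAC 4. In the libraries labelled Rad KO it was -0.03 (SE 0.15). Sirt3 exons overlap those of Ric8a (7.0% of the exonic length) and Psmd13 (5.73%) on the opposite strand, and in WT these had log2 fold changes of 0.35 (SE 0.10, adjusted p = 0.0979) and 0.31 (SE 0.11, adjusted p = 0.167), so shared reads cannot be told apart here either.

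**Figure D3:**
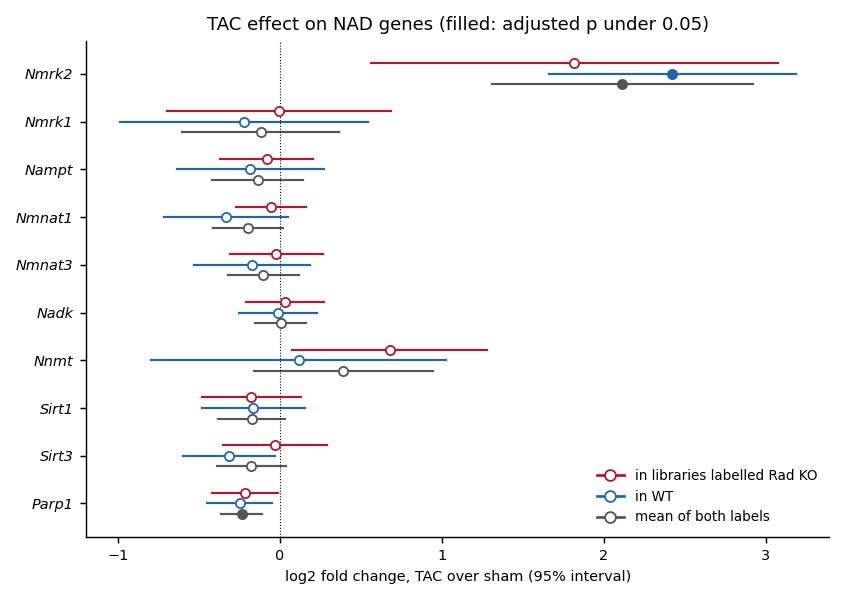
Log2 fold change of TAC over sham (horizontal axis) for the 10 genes in the libraries labelled Rad KO, in WT and averaged over both labels; lines are 95% intervals and filled points passed an adjusted p of 0.05. The filled points are Nmrk2 in WT and in the average (2.42 and 2.12) and Parp1 in the average (-0.24).

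Counted over the 10 genes, 0 were called after TAC in the libraries labelled Rad KO (3 at an unadjusted p under 0.05, 0 by DESeq2), where 1.69% of 14122 tested genes were called (1.05% higher and 0.644% lower) and 17.3% passed unadjusted. In WT 1 was called, Nmrk2, where 3.09% of 14323 genes were called (2.00% higher and 1.08% lower) and 17.4% passed an unadjusted p of 0.05, as did 3 of the 10. In the average 2 were called, Nmrk2 higher and Parp1 lower, where 11.1% of 14731 genes were called (6.36% higher and 4.75% lower) and 26.3% passed unadjusted. With 1 or 2 calls among 10 genes, the results are those of the named genes and nothing is read about the set. The median log2 fold change of the 10 genes was -0.03 in Rad KO and -0.18 in WT, beside 0.01 and -0.00 over all tested genes. Groups that did not overlap were found for 2 of the 10 genes in Rad KO (Nnmt above, Parp1 below) and 2 in WT (Nmrk2 above, Parp1 below). Over all tested genes, TAC lay wholly above sham for 8.77% and wholly below for 7.37% in Rad KO, and for 7.95% and 8.87% in WT. The share of all genes that parted in the same direction under both labels at once, as Parp1 did, was not counted.

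The comparison of labels asks whether the Rad KO label goes with other levels of these genes in unloaded or loaded ventricles. In sham, 0 of 10 were called in Rad KO against WT (0 at an unadjusted p under 0.05, 0 by DESeq2), where 0% of 14731 genes were called and 5.75% passed unadjusted. After TAC, 0 of 10 were called (1 unadjusted, 0 by DESeq2), where 0.0136% of genes were called (0.00679% higher and 0.00679% lower) and 7.76% passed unadjusted. The gene past an unadjusted p of 0.05 was Nmnat1, at a log2 difference of 0.37 (SE 0.13, unadjusted p = 0.0153, adjusted p = 0.459). Nmrk2 differed by -0.23 after TAC (SE 0.44, 95% interval -1.17 to 0.71) and by 0.38 in sham (SE 0.58, 95% interval -0.86 to 1.62). Nampt was 0.34 higher after TAC on the log2 scale in Rad KO than in WT (SE 0.17, 95% interval -0.03 to 0.70, adjusted p = 0.683). For the difference of the TAC effects, Rad KO minus WT, 0 of 10 genes were called (0 unadjusted, 0 by DESeq2), where 0% of genes were called and 5.12% passed unadjusted. That difference was -0.61 for Nmrk2 (SE 0.73, 95% interval -2.16 to 0.94), so both an equal response and one several-fold smaller in the libraries labelled Rad KO lie within the interval.

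Nmrk2 was set beside 4 genes that report pressure load. After TAC, 4 of them were called higher in WT, where 2.00% of all tested genes were. In the libraries labelled Rad KO 2 were called higher, beside 1.05% of all, and 4 passed an unadjusted p of 0.05. In WT TAC, replicate 3 was highest for Nmrk2 (47.0 CPM), for the natriuretic peptide genes Nppa (1720.4 CPM) and Nppb (1134 CPM), for the slow myosin gene Myh7 (6921 CPM) and for the stretch-response gene Ankrd1 (7194 CPM). In Rad KO TAC, Nmrk2 was highest in replicate 1 (42.5 CPM), while Nppa (1339 CPM), Nppb (600.4 CPM), Myh7 (2242 CPM) and Ankrd1 (5867 CPM) were highest in replicate 2. Rad KO TAC 4, with a sham-like Nmrk2 level, had 263 CPM of Nppa, 316 CPM of Nppb and 1703 CPM of Ankrd1. Those 3 values lay above all Rad KO sham libraries, which had at most 70.4 CPM of Nppa, 115 CPM of Nppb and 1021 CPM of Ankrd1. Summed over all 4 genes, Myh7 included, the level was 3074 to 10048.5 CPM in Rad KO TAC and 1060 to 1319 CPM in Rad KO sham. Over the 14 libraries Nmrk2 had Pearson's r of 0.88 with Myh7, 0.87 with Ankrd1, 0.84 with Nppa and 0.81 with Nppb (log2 CPM). In the same order these stood 96th, 112th, 198th and 296th of 10200 genes ranked by r. Many other genes were thus nearer to Nmrk2.

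Among 10200 genes with a mean of at least 5 CPM, the 5 whose pattern over the 14 libraries was most like that of Nmrk2 were Pum3 (r = 0.97), Fbln5 (0.96), Itgb5 (0.95), Ace (0.94) and Ahnak2 (0.93). Fbln5 encodes an elastic fibre protein, Itgb5 an integrin subunit and Ace the angiotensin-converting enzyme. Ace had 130.4, 116, 81.4 and 86.6 CPM in Rad KO TAC 1 to 4 and 72.0, 61.6 and 61.0 CPM in Rad KO sham 1 to 3, with 103, 144, 152 and 98.2 CPM in WT TAC 1 to 4 and 52.6, 59.6 and 54.4 CPM in WT sham 1 to 3. These correlations are descriptions: the points share the split into TAC and sham, the libraries and their depth.

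The 5 patterns nearest to that of Nampt were Magi2 (r = 0.90), Rilpl1 (0.89), Sbk1 (0.89), Arhgap20 (0.89) and Trpm4 (0.89). Nampt is also known as a target of the circadian clock, and 12 listed clock genes were abundant enough to be ranked the same way. They ran from Tef (r = 0.81, 40th of 10200), Per2 (0.81, 43rd) and Nr1d2 (0.80, 54th) through Per3 (0.73), Cry2 (0.72), Ciart (0.60), Dbp (0.56), Per1 (0.45), Cry1 (0.38) and Nr1d1 (0.03) to Clock (-0.37) and Arntl (-0.63). Nmnat1 was 53rd (r = 0.80). Tef had 90.6, 173, 124 and 180.0 CPM in Rad KO TAC 1 to 4, 197, 178 and 164 CPM in Rad KO sham 1 to 3, 145, 78.1, 105 and 214 CPM in WT TAC 1 to 4, and 149, 131 and 141 CPM in WT sham 1 to 3. The lowest Tef library, WT TAC 2, was the lowest for Nampt, and WT TAC 4, highest for Tef, was the highest WT library for Nampt. Tef itself did not pass the test after TAC (-0.34, SE 0.20, adjusted p = 0.414 in Rad KO and -0.04, SE 0.27, adjusted p = 0.966 in WT). The labels give no time of day of harvest, and its part in the Nampt and Nmnat1 values was not tested.

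**Figure D4:**
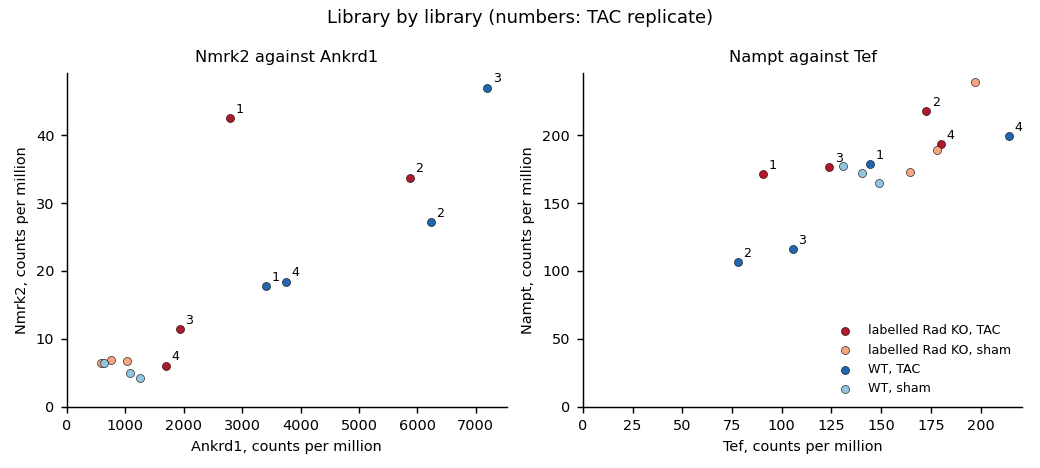
CPM by library, Nmrk2 against Ankrd1 on the left and Nampt against Tef on the right (axes from 0), with colours for the 4 groups and numbers for the TAC replicates. Nmrk2 and Ankrd1 are both highest in WT TAC 3, Rad KO TAC 1 stands high in Nmrk2 for its Ankrd1, and WT TAC 2 and 3 are lowest for Nampt.

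The rest of the NAD pathway was read from a list of 47 other genes, of which 45 were in both tables. Of these, 37 were tested in Rad KO, 38 in WT and 39 in the 14 libraries. In Rad KO 1 fell (Nadk2) and 0 rose, although DESeq2 also called Enpp1 higher there (0.84, adjusted p = 0.0124); in WT 1 rose (Enpp1) and 0 fell; in the average 1 rose (Enpp1) and 2 fell (Nadk2 and Art4). The median log2 fold change of the tested genes was 0.04 in Rad KO, 0.01 in WT and 0.04 in the average. Over all genes the called shares were 1.69%, 3.09% and 11.1% for the same comparisons.

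Nadk2, the mitochondrial NAD kinase, had 56.2, 52.5, 67.0 and 71.4 CPM in Rad KO TAC 1 to 4 and 95.2, 88.4 and 85.2 CPM in Rad KO sham 1 to 3. In WT libraries it was at 67.7, 52.3, 41.8 and 63.4 CPM in TAC 1 to 4 and 91.1, 78.0 and 84.3 CPM in sham 1 to 3. TAC lay below sham in all libraries of both labels, with log2 fold changes of -0.54 (SE 0.11, adjusted p = 0.0485) in Rad KO, -0.58 (SE 0.16, adjusted p = 0.0786) in WT and -0.56 (SE 0.10, adjusted p = 0.00305) in the average. The Rad KO call was lost on leaving out any 1 of the libraries other than Rad KO TAC 4, with adjusted p up to 0.173, and the average call without the 3 sham libraries named above (-0.62, adjusted p = 0.0630). DESeq2 called Nadk2 in WT as well (adjusted p = 0.0144), which repeats the authors' deposited WT value. In that deposited table Nadk2 had -0.54 with adjusted p = 0.00244 in Rad KO and -0.58 with adjusted p = 0.0144 in WT. For its cytosolic counterpart Nadk the value was 0.01 in the average (SE 0.07, 95% interval -0.15 to 0.16).

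Enpp1, an ectoenzyme that cleaves extracellular nucleotides, had 22.8, 18.4, 14.98 and 11.3 CPM in Rad KO TAC 1 to 4 and 9.28, 8.79 and 10.1 CPM in Rad KO sham 1 to 3. In WT libraries it was at 13.35, 27.8, 24.8 and 20.6 CPM in TAC 1 to 4 and 9.21, 13.28 and 8.81 CPM in sham 1 to 3. All TAC libraries lay above the sham libraries of their label, in WT by a margin of 13.35 against 13.28 CPM. The log2 fold change was 0.85 (SE 0.22, adjusted p = 0.0880) in Rad KO, 1.06 (SE 0.24, adjusted p = 0.0438) in WT and 0.95 (SE 0.18, adjusted p = 0.00358) in the average. The authors' deposited table gave Enpp1 0.84 with adjusted p = 0.0124 in Rad KO, the value DESeq2 repeated, and 1.06 with adjusted p = 0.000549 in WT. With edgeR in Rad KO, Enpp1 also passed with no filter (adjusted p = 0.0213) and without Rad KO TAC 4 (1.00, adjusted p = 0.0173). The WT call was lost on leaving out any 1 library but WT TAC 1, with adjusted p up to 0.215, and the average call without the 3 sham libraries named above (1.01, adjusted p = 0.0712).

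Art4, of the ADP-ribosyltransferase family, had a log2 fold change of -0.39 (SE 0.14, adjusted p = 0.196) in Rad KO, -0.29 (SE 0.13, adjusted p = 0.289) in WT and -0.35 (SE 0.10, adjusted p = 0.0342) in the average, a call lost in 6 of the 14 fits that left out 1 library and without the 3 sham libraries named above (-0.37, adjusted p = 0.188). Nnt, the mitochondrial transhydrogenase that makes NADPH from NADH, was low throughout, at 6 to 37 counts a library, so its fold changes rest on few reads. It had 0.50, 0.45, 0.37 and 1.72 CPM in Rad KO TAC 1 to 4 and 2.14, 1.38 and 1.16 CPM in Rad KO sham 1 to 3. In WT libraries it was at 0.98, 0.81, 0.50 and 0.40 CPM in TAC 1 to 4 and 1.62, 1.08 and 1.00 CPM in sham 1 to 3. WT TAC lay below WT sham, and in Rad KO the TAC library 4 lay among sham. The averaged log2 fold change of Nnt was -0.96 (SE 0.35, adjusted p = 0.0870), with -1.34 and adjusted p = 0.00764 without Rad KO TAC 4 and -0.82 and adjusted p = 0.206 without Rad KO sham 1.

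**Figure D5:**
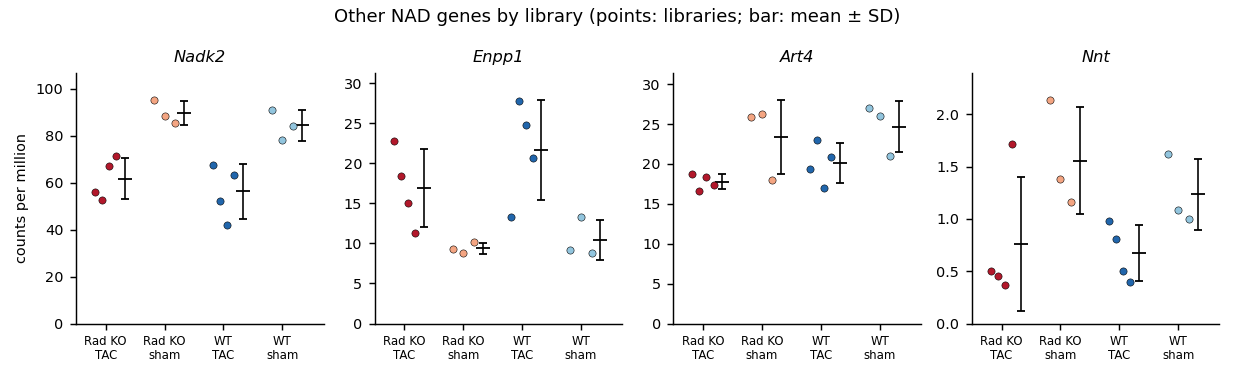
CPM (vertical axes, from 0) of Nadk2, Enpp1, Art4 and Nnt by library in the order Rad KO TAC, Rad KO sham, WT TAC and WT sham; points are libraries and the bar is the mean ± SD. Nadk2 is lower and Enpp1 higher in all TAC libraries than in the sham libraries of the same label.

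Other branches of the pathway were low or did not pass the test. Of the genes on or branching from the route from tryptophan, Tdo2, Ido1, Kmo, Haao, Acmsd and Qprt were below 1 CPM in all libraries, and so was the NAD hydrolase gene Sarm1. Afmid, the kynurenine formamidase of the same route, had 1.17 to 2.21 CPM in Rad KO TAC, 1.61 to 2.14 CPM in Rad KO sham, 0.85 to 1.98 CPM in WT TAC and 1.75 to 1.99 CPM in WT sham. Naprt, which starts synthesis from nicotinic acid, had log2 fold changes of -0.04 (SE 0.17, adjusted p = 0.935) in Rad KO and -0.48 (SE 0.16, adjusted p = 0.145) in WT, where TAC lay below sham. The ectoenzyme gene Cd38 had 0.18 (SE 0.16) in Rad KO and 0.06 (SE 0.13) in WT. Of 15 tested genes of the PARP family and ADP-ribose removal other than Parp1, and of 5 other sirtuin genes, 0 were called in Rad KO, WT or the average. At an unadjusted p under 0.05 there were 0 PARP and 0 sirtuin genes in Rad KO, 3 and 0 in WT, and 2 and 0 in the average, where 17.3%, 17.4% and 26.3% of all genes passed. Parp2, which shares DNA-break sensing with Parp1, had 0.04 (SE 0.13) in Rad KO and -0.43 (SE 0.15, adjusted p = 0.169) in WT. Sirt2, the mostly cytosolic sirtuin, had 0.03 (SE 0.09) in Rad KO and 0.13 (SE 0.10) in WT, and Sirt6, a nuclear one, had 0.16 (SE 0.17) in Rad KO and -0.20 (SE 0.24) in WT.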

How the data were processed

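The members, the gene lists, the rule for named genes and the alternatives were chosen with earlier results of these data known. Raw read counts by gene were deposited by the authors in 2 tables, 1 for each genotype label, with TAC and sham libraries side by side. The FPKM values deposited by the authors are named so in the file headers; checked against the counts, they are the count over gene length and 1 constant per library, set within each table. A normalized signal was also deposited, and the authors' deposited log2 fold change and p-value of each gene stand in the same tables, per the file headers. The submitters' processing notes list HISAT2, DESeq2, edgeR and mm10, with no role or version; for the counter, annotation release and strand setting no source used here gives a name.

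Tests used the counts. TAC effects were fitted on the 7 libraries of each label, and the other contrasts in 1 model of 4 groups and 14 libraries on genes in both tables, with the quasi-likelihood test of edgeR 4.0.16 (R 4.3.3), TMM scaling, Benjamini-Hochberg adjustment and a threshold of 0.05. Low genes were dropped by filterByExpr (min.count 10, min.total.count 15). An SE is the log2 fold change over the square root of F. CPM are counts per 1000000 with TMM scaling over 14 libraries, and likeness used log2(CPM + 0.5). DESeq2 1.42.0 was an alternative. Named genes were the 10 members, 9 other pathway genes fixed by name, other pathway genes past the threshold, and the 5 nearest patterns to Nmrk2 and Nampt. Atcayos, Ric8a and Psmd13 were added after the GENCODE M21 annotation showed that their exons overlap members. Scripts were tested on simulated data. Figures used matplotlib 3.10.9 in Python 3.11.15. Of per-sample columns, 0 were without a sample. Same-numbered libraries were not treated as pairs: over 13 pairs the correlation of deviations was -0.16 to 0.16, above 0.1 in 2. The labels do not say whether the numbers pair libraries, and these correlations do not settle it.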

Additional observations from a re-analysis of the deposited data

Results flagged for a closer look

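In groups of 4 libraries, 4 of 42 tests over 21 genes found 1 library far from the others of its group by the gap-to-range test of Dixon; chance flags about 1 in 20. Sirt3 in WT TAC 4 was at 28.9 CPM, within the WT sham range, while WT TAC 1 to 3 were at 21.0 to 21.8 CPM. Nnt in Rad KO TAC 4 was at 1.72 CPM against 0.37 to 0.50 CPM in Rad KO TAC 1 to 3, in the library whose Nmrk2 level was also sham-like. Qprt in WT TAC 4 was at 0.264 CPM with 0 in WT TAC 1 to 3, a difference of few counts. Sirt6 in WT TAC 1 was at 2.996 CPM against 5.64 to 6.02 CPM in the other WT TAC libraries.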

How the results depend on the processing

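Of 1100 recomputed values of the 10 genes, 1087 kept their side of the threshold, 6 passed it and 7 lost it. Most of the 1087 were values that passed in neither fit, and all 7 losses fell on the calls of Nmrk2 and Parp1. In WT, Nmrk2 lost its call in 2 fits and kept it in 12. In the average, Nmrk2 lost its call in 1 fit and kept it in 19, and Parp1 lost its call in 4 and kept it in 16. Of the 1100 values 68 changed sign, as did 36 of 989 values of the other named genes, and 0 of these had an adjusted p under 0.05. After TAC in the libraries labelled Rad KO, 239 genes were called, against 721 by DESeq2, 571 with no filter, 16 at an adjusted p under 0.01, 9 without Rad KO sham 2 (Esr1 unlike its label) and 9 (Rad KO sham 2) to 536 (Rad KO TAC 4) without 1 library each. The replicate block gave 431. Members called there were 0, but 1 (Nmrk2) with no filter (1.81, adjusted p = 0.0241), under the replicate block (1.96, adjusted p = 0.0322) and without Rad KO TAC 4, so 0 to 1. In WT 442 genes were called, against 910 by DESeq2, 782 with no filter, 59 at 0.01, 0 without the high-Esr1 sham libraries and 15 (WT sham 3) to 614 without 1 library each; members called were 0 without those sham libraries and 0 to 2 without 1 library each. In the average 1637 genes were called, against 144 without the 3 sham libraries, 591 at 0.01 and 972 to 2033 without 1 library each; members called were 0, 1 and 1 to 3 under these, and 3 under the replicate block, which added Sirt3 (-0.30, adjusted p = 0.0191). Rad KO against WT in sham called 0 genes, with 10 by DESeq2, 2 without the 3 sham libraries, 12 from the libraries of both groups alone and 0 to 1 without 1 library each. After TAC it called 2, with 91 by DESeq2, 21 with no filter, 1 under the replicate block, 16 without the 3 sham libraries, 10 from both groups alone, 1 at 0.01 and 1 to 32 without 1 library each. The difference of TAC effects called 0, with 8 by DESeq2 and 0 to 4 without 1 library each. The cause of these changes was not tested. The labels do not say whether the replicate numbers pair the libraries, so the block is given here only, as an alternative. Nmrk1 and Nnmt, at 14 to 74 counts, had the fewest reads of the 10 genes. The other members have limits too. In counts simulated for genes at 1 CPM or more, the test recovered 65% of 2-fold changes in WT and 70% in Rad KO. In the average it recovered 87%. A gene that did not pass may therefore still have changed.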
